A study of Mus musculus with 8 samples.

Results

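Messenger RNAs for the proteins of the cytosolic ribosome were measured in mouse liver. The genes were taken by symbol, as entries named Rpl or Rps with a number and at most 1 of the letters a, x or l, the stalk genes Rplp0 to Rplp2, and Rpsa. Among the 16650 entries that were measured, 80 fitted that pattern, and 2 of them, Rps4l and Rpl32l, were left out as annotated pseudogenes, which left 78 genes. These were 30 genes for the small subunit, 43 for the large subunit, 3 for the stalk of the large subunit and 2 paralogs expressed beside the standard gene, Rpl3l and Rps27l. The symbols Fau, Rps3a1 and Rack1, which also code for ribosomal proteins, fall outside the pattern and were read beside it.

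The livers came from mice fed a NASH diet, a diet high in fat given with fructose in the drinking water, from 8 weeks of age for 2 weeks. All 8 mice carried floxed alleles of Mfsd2a, the transporter that brings lysophosphatidylcholine into cells. The 4 2afl/fl controls had no further change, and the 4 L2aKO mice also carried a Cre recombinase under the albumin promoter, which is active in hepatocytes. Livers were perfused and taken at 10 weeks of age and zeitgeber time 4, and each library is 1 mouse. Mice on chow were not analysed here.

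The quantity throughout is the normalized read count the authors deposited, 1 value per gene and liver, and the libraries held 27.5 to 37.2M reads assigned to the listed genes, an estimate from the column total divided by the value of 1 read. Mfsd2a itself read 467, 1569, 299.6 and 513 in the 2afl/fl livers and 915, 721, 1422 and 1974 in those labelled L2aKO, a log2 difference of 1.01 (SE 0.59, adjusted p = 0.9997 by limma). The targeted gene was thus not lower in the livers labelled L2aKO, and the groups overlapped. Which of its exons the counts cover is not given in the sources used here, and a message from a recombined allele can still be counted, so this value may not check the deletion, and the direction of every difference below rests on the labels.

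Each ribosome holds, with few exceptions, a single copy of each of its proteins, and cells make the proteins in matched amounts. In mammals this rests largely on a shared start of their mRNAs, the terminal oligopyrimidine tract, an unbroken run of C and T that begins with a C at the first base, through which mTORC1 and the protein Larp1 control the translation of these mRNAs together. Ribosome building is among the costliest activities of a growing liver cell, and these mRNAs are short, abundant and stable. Most of the genes have also left many processed pseudogenes across the mouse genome.

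The shared start is shown for 7 genes on which the results below turn, as 10 bases before and 20 bases from the RefSeq start of transcription (build GRCm38.p6), 5′ to 3′ on the coding strand, with the longest pyrimidine run in capitals.
Rps6, chr4:86857348-86857377, minus strand: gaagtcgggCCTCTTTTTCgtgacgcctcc
Rplp2, chr7:141447641-141447670, plus strand: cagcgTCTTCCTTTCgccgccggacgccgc
Rps27, chr3:90213629-90213658, minus strand: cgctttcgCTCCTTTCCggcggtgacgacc
Rpl38, chr11:114668570-114668599, plus strand: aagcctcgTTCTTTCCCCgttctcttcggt
Rpl34, chr3:130730379-130730408, minus strand: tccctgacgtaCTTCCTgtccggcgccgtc
Rps27l, chr9:66946076-66946105, plus strand: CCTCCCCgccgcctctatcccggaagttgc
Rpl3l, chr17:24727816-24727845, plus strand: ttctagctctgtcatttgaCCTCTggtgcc
The run spanned the start and was 9 or 10 bases long in Rps6, Rplp2, Rps27 and Rpl38. In Rpl34 the longest run had 6 bases and began just after the start. In the paralogs Rps27l and Rpl3l the longest runs, of 7 and 5 bases, lay before or after the start. A RefSeq promoter was matched for 58 of the 78 genes. A run of at least 8 pyrimidines on the coding strand, within the 60 bases from 10 before to 50 after the start, was found in 40 of them (69.0%), against 19.4% of 12930 other genes of the table. The letters CTTTCC on the coding strand of the same window were found in 14 (24.1%), against 2.31%. Over the 250 bases before and 50 after the start and on both strands, the letters CCGGAAG were found in 23 (39.7%), against 15.5%, and AAGATGG in 8 (13.8%), against 6.66%. These are matches of letters and not measured sites.

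The question of the comparison was whether the ribosomal protein mRNAs differed between the genotypes on the NASH diet. Over all 16650 genes limma was fitted to the values on a log2 scale, with 1 added to each value. A gene was called at an unadjusted p under 0.05 together with a log2 difference of at least 0.32 in size, which is the fold limit of the study's criterion. Of the 78 ribosomal protein genes 1 was called, Rpl34, which was lower in the livers labelled L2aKO. That is 1.28% of them, against 2.10% of all genes (0.781% lower and 1.32% higher). Among the 77 with a mean of at least 100 it is 1.30%, against 0.899% of 10124 other genes in the same range of mean values. An unadjusted p under 0.05 was likewise reached by 1 of 78, against 3.49% of all genes. No gene of the table had an adjusted p under 0.05 by limma, although 581 of 16650 had an unadjusted p under 0.05. In 0 of the 78 genes were the groups separate, where 2.25% of all genes had groups that did not overlap.

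Differences were small in both directions. The log2 difference, livers labelled L2aKO minus 2afl/fl, was below 0 in 52 genes and above 0 in 26. Thus 66.7% were below 0, against 49.9% of all genes and 53.0% of 10124 other genes in the same range of mean values. The count below 0 rested on single livers, at 40 of 78 without L2aKO replicate 2 and 70 of 78 without L2aKO replicate 3. The median difference was -0.026, against 0.00034 over all genes and -0.0057 over those 10124 genes. In 73 of 78 genes the difference was under 0.1 in size. The 95% interval of the difference lay within that fold limit on both sides in 67 of the 78 genes (85.9%). Among 10124 other genes in the same range of mean values this held for 67.7%, and among all genes for 43.1%. The median difference was -0.035 for the small subunit, where 21 of 30 genes were below 0, and -0.023 for the large subunit, where 28 of 43 were. For most of these mRNAs the data therefore bound the genotype difference to under the fold limit, while for the other 11 the interval was wider.

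**Figure D1:**
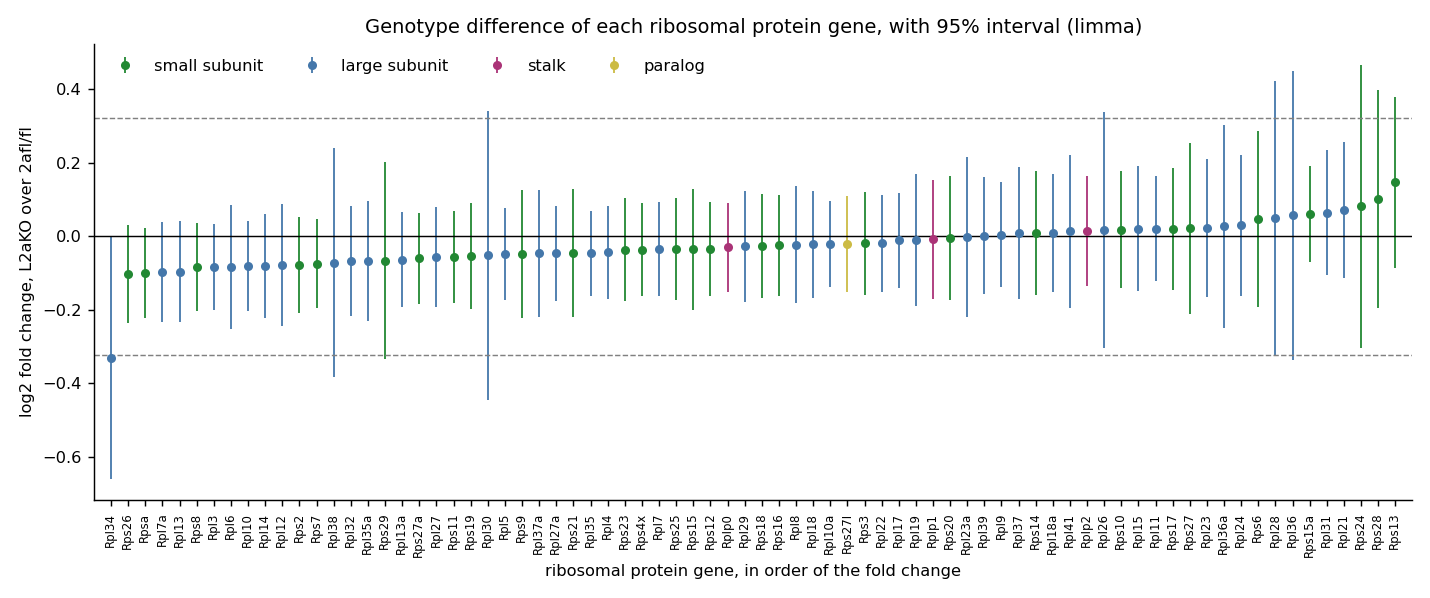
Log2 difference of each ribosomal protein gene (points, coloured by its place in the ribosome) with its 95% interval from limma (bars, 4 livers per group). Dashed lines mark the fold limit, 0.32 in log2. Rpl3l, with a mean of 2.89 and an interval from -1.23 to 1.57, is not drawn, nor is a gene not reported here. Rpl34 at -0.33 stands below the rest, which lie between -0.10 and 0.15.

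Among the small subunit genes, Rpsa, which codes for the protein also known as the laminin receptor, read 6741, 6306, 7068 and 6597 in the 2afl/fl livers and 6190.4, 6131, 6325 and 6264 in the livers labelled L2aKO. Of the latter 3 lay below every control, but L2aKO replicate 3 did not and the groups overlapped (log2 difference -0.10, SE 0.056, unadjusted p = 0.101 by limma). Rps26, whose protein lines the channel through which mRNA leaves the small subunit, read 2293, 2409.8, 2315 and 2343 against 2108, 1998, 2274 and 2352. Its difference was of the same size (-0.10, SE 0.062), and L2aKO replicate 4 lay above 3 of the 4 controls. Rps19, the gene most often mutated in Diamond-Blackfan anemia, read 1614, 1689, 1794 and 1817 against 1638, 1534, 1672 and 1818. The highest and the lowest liver of the 8 were thus both labelled L2aKO (-0.055, SE 0.066).

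Rps27a codes for a fusion of ubiquitin with the ribosomal protein. Its values were 1878, 1878, 1889 and 2011 in the 2afl/fl livers and 1779, 1836, 1963 and 1768 in those labelled L2aKO (-0.060, SE 0.057). L2aKO replicate 3 lay above 3 of the 4 controls. Rps4x, the X-linked copy of its gene, read 4851, 5061, 5020.2 and 5340.1 against 4636, 5141, 4926 and 5066, with the highest liver a control and the lowest labelled L2aKO (-0.037, SE 0.058). Rps6, whose protein is phosphorylated by kinases downstream of mTORC1, read 319, 255, 370.05 and 348 against 347, 337, 323 and 318, and all 4 livers labelled L2aKO lay inside the control range (0.048, SE 0.11).

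The small subunit genes with the highest differences had wide spreads. Rps13 read 437, 436, 447 and 473 in the 2afl/fl livers and 544, 386, 544 and 531 in those labelled L2aKO. It had the highest difference of all ribosomal protein genes with a mean over 100 (0.15, SE 0.11, unadjusted p = 0.194 by limma), with 3 livers above every control and L2aKO replicate 2 below every control. Rps28 read 529.7, 571, 602 and 688 against 633, 496, 800.1 and 659 (0.10, SE 0.13). Rps24 read 1406, 1059, 1230.4 and 1377 against 1329.9, 966, 1622 and 1517 (0.081, SE 0.17). In both genes L2aKO replicate 2 was the lowest and L2aKO replicate 3 the highest liver of the 8.

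Among the large subunit genes, Rpl10, whose protein is added late in the assembly of the subunit, was the most abundant per kb, at 12125. Its normalized values, not divided by length, were 9732, 9668, 10136 and 10303 in the 2afl/fl livers and 9369, 9282, 9785 and 9228 in those labelled L2aKO. The 2afl/fl livers were higher on average, but L2aKO replicate 3 lay within the control range (-0.081, SE 0.056, unadjusted p = 0.175 by limma). Rpl3, which reaches into the peptidyl transferase centre, read 4565, 4403, 4860.2 and 4619.98 against 4297, 4320.2, 4448 and 4344 (-0.083, SE 0.054). There 3 of the 4 livers labelled L2aKO lay below every control. Rpl7a read 5487, 5094, 5269 and 5479 against 4821, 4614, 5349 and 5174 (-0.098, SE 0.063), and Rpl13 read 2486, 2428, 2697 and 2649 against 2322, 2246, 2611 and 2421 (-0.097, SE 0.063). In Rpl7a 2 and in Rpl13 3 of the 4 livers labelled L2aKO lay below every control.

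Rpl5 and Rpl11 code for proteins that, bound to an rRNA of the large subunit, can inhibit Mdm2 when assembly is disturbed. Rpl5 read 4167, 4484, 4374 and 4766 in the 2afl/fl livers and 4219, 4428, 4328 and 4205 in those labelled L2aKO (-0.049, SE 0.058). Rpl11 read 2295, 2288, 2242 and 2456 against 2337, 2113, 2552 and 2428 (0.020, SE 0.066). The groups overlapped in both. Rpl13a, whose protein also has a role outside the ribosome in silencing translation, read 4401, 4547, 4856 and 5043 against 4387, 4581, 4629 and 4409 (-0.064, SE 0.060), and the 2 highest livers were controls.

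Rpl41, which codes for the shortest of the ribosomal proteins, read 2512, 2374, 2739 and 2625 in the 2afl/fl livers and 2509, 2128, 2982 and 2792 in those labelled L2aKO (0.013, SE 0.095). Rpl39, whose small protein lines the exit tunnel, read 998, 919.7, 1049.9 and 991 against 929, 911, 1083 and 1047 (0.0017, SE 0.073). In both genes L2aKO replicate 2 was lowest and L2aKO replicate 3 highest. The large subunit genes with the highest differences were Rpl21, at 1202, 1134, 1041 and 1231 against 1232, 1027, 1338 and 1262 (0.072, SE 0.085), and Rpl31, at 1349, 1147, 1238 and 1364 against 1297, 1184, 1443 and 1408 (0.064, SE 0.078). Neither had separate groups.

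The stalk proteins recruit the elongation factors to the ribosome, and their mRNAs differed little. Rplp0, the base of the stalk, read 7846, 7615, 8377 and 7856 in the 2afl/fl livers and 7928, 7770.1, 7747 and 7575 in those labelled L2aKO (-0.030, SE 0.056). Rplp1 read 2963, 2962, 3327 and 2745 against 2949, 2674, 3233 and 3077 (-0.0079, SE 0.074), and Rplp2 read 1306, 1142, 1194 and 1195 against 1185, 1143, 1359 and 1204 (0.014, SE 0.069). The 95% intervals ran from -0.15 to 0.09 for Rplp0, from -0.17 to 0.15 for Rplp1 and from -0.14 to 0.16 for Rplp2.

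The paralogs differed from each other in level. Rps27l, a paralog of Rps27 known as a target of p53, read 2986, 3262, 2863 and 2919.9 in the 2afl/fl livers and 2929, 2872, 2902 and 3151 in those labelled L2aKO (-0.021, SE 0.060). Per kb of annotated mRNA it stood at 5983, which was rank 5 of the 78 genes, while Rps27 stood at 1426, or at 2874 with the entry Rps27rt at its locus. Rpl3l, the form of Rpl3 known from striated muscle, read 7.45, 4.26, 1.14 and 0 against 2.18, 2.46, 1.90 and 3.72, and 2.79 per kb against 3318 for Rpl3. Its difference of 0.17 (SE 0.65) rests on a few reads per liver. The paralogs Rpl10l and Rpl39l were not analysed here.

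Rpl34, the gene called, read 275, 217, 264 and 239.8 in the 2afl/fl livers and 246, 222, 145 and 189.8 in those labelled L2aKO. The lowest livers were L2aKO replicates 3 and 4, and the groups overlapped. The log2 difference was -0.33 (SE 0.15, unadjusted p = 0.0485, adjusted p = 0.9997 by limma). Without L2aKO replicate 3 it was -0.19 and no longer called, and the call was also lost without L2aKO replicate 4 or without 2afl/fl replicate 1, 3 or 4, at differences from -0.35 to -0.28. The call did not hold either when the second entry at the same place in the genome was added.

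That second entry is Rpl34-ps1. In the deposited table it lies on the minus strand of chromosome 3, from 130726837 to 130730329, inside the span of Rpl34 from 130726827 to 130730398, whereas RefSeq places Rpl34-ps1 on chromosome 6. It held 87.5% of the summed value of the pair. Rpl34-ps1 read 1468, 1769, 1482 and 1579 in the 2afl/fl livers and 1554, 1637, 1536 and 1571 in those labelled L2aKO. Summed, the pair read 1743, 1986, 1746 and 1819 against 1799.7, 1859, 1681 and 1761, and the difference was -0.038 (SE 0.061, 95% interval -0.17 to 0.10, unadjusted p = 0.548 by limma).

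Reads that a counting program shares out between entries can be recognised, since a count of whole reads gives values that are whole multiples of the value of 1 read in that library, here 0.819 to 1.14 (tolerance 0.02 reads, values under 3000). Rpl34 was a whole multiple in 0 of 8 libraries and Rpl34-ps1 in 1, but their sum was whole in 7 of 8. Whole reads were thus recovered from the pair and not from either entry, and which entry a given read belongs to cannot be told apart from the deposited values.

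The same arrangement was found at 3 more genes, among the 24 of 16515 entries that the table places on another chromosome than RefSeq. Rps27, a zinc-binding protein of the small subunit, shared its place on chromosome 3 with Rps27rt, a retrogene that RefSeq places on chromosome 9. Rps27 read 444, 471, 488 and 546 in the 2afl/fl livers and 473, 408, 573 and 535 in those labelled L2aKO (0.022, SE 0.11). Rps27rt read 372, 516, 478 and 502 against 521, 441, 569.99 and 594 (0.19, SE 0.12). The sum of the pair was whole in 8 of 8 libraries, where Rps27 alone was whole in 2, and it differed by 0.10 (SE 0.10).

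Rpl26 shared its place on chromosome 11 with Gm15772, placed by RefSeq on chromosome 5 and annotated there as a transcribed pseudogene. Rpl26 read 351, 285, 304 and 420.2 in the 2afl/fl livers and 286, 316, 434 and 341 in those labelled L2aKO, while Gm15772 held 86.0% of the pair and read 1936 to 2178 over the 8 livers. Rpl30 shared its place on chromosome 15 with Gm12191, placed by RefSeq on chromosome 11 as a transcribed pseudogene. Rpl30 read 93.7, 81.7, 140.4 and 98.2 against 105, 110.4, 102 and 77.2, and Gm12191 held 93.5% of the pair. The summed values differed by -0.019 (SE 0.052) for Rpl26 and by 0.054 (SE 0.062) for Rpl30. These sums were whole in only 2 and 1 of 8 libraries, so further entries may hold part of the reads, which was not tested.

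For Rps6 the larger value stood at another place. Rps6-ps4, on chromosome 2 in the table and in RefSeq, read 4193, 4207, 4245 and 4754 in the 2afl/fl livers and 4125, 4059.9, 4679.5 and 4383 in those labelled L2aKO, and so held 93.0% of the sum with Rps6 on chromosome 4. Of the 50-base windows of the Rps6 mRNA 84.6% also occurred in transcripts of other genes. The sum differed by -0.0090 (SE 0.065). Adding pseudogene entries with low values was tried for 5 genes and did not act alike. Whole reads were found in 8 of 8 libraries in place of 0 for Rps15a (with Rps15a-ps4 and Rps15a-ps6), in 7 in place of 4 for Rps19 (with Rps19-ps3) and in 6 in place of 0 for Rpl14 (with Rpl14-ps1). For Rplp2 with Rplp2-ps1 it was 1 in place of 0, and for Rpl31 with Rpl31-ps12 it was 0 in place of 1.

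**Figure D2:**
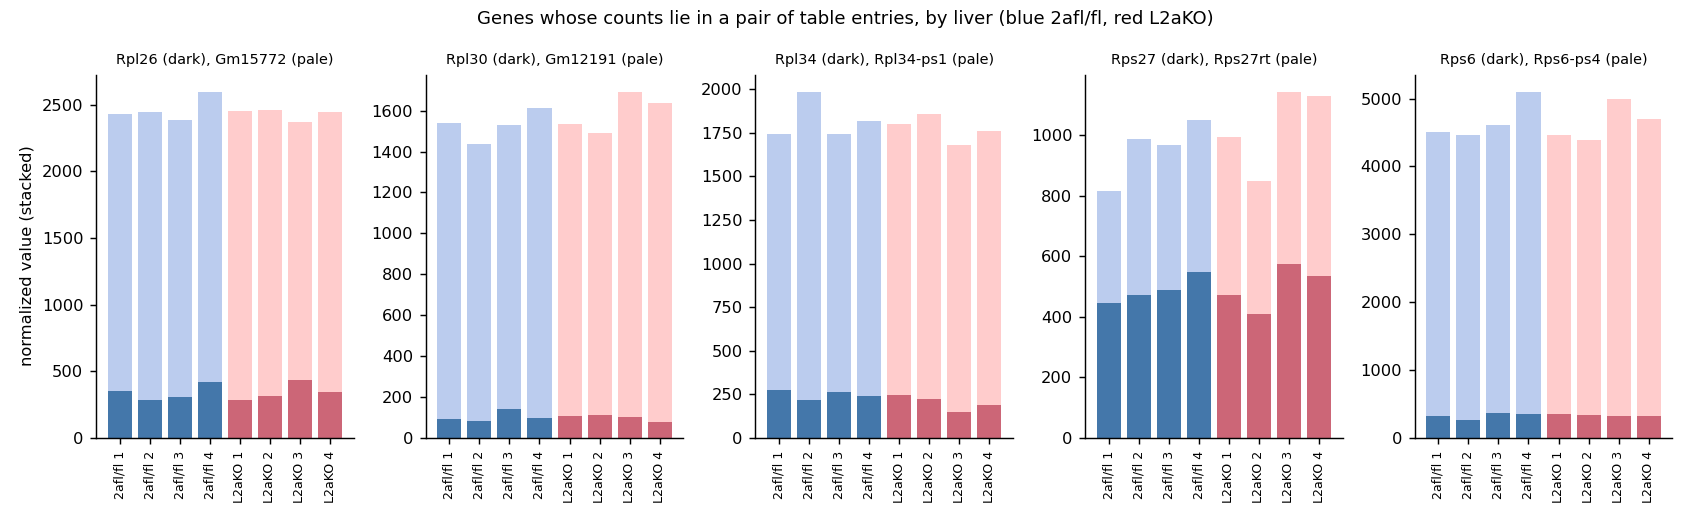
Normalized value of 5 ribosomal protein genes (dark) stacked with the second table entry that lies at its locus or, for Rps6, is named for it (pale), by liver, for 2afl/fl (blue) and L2aKO (red). The second entry is the larger part in Rpl26 (86.0%), Rpl30 (93.5%), Rpl34 (87.5%) and Rps6 (93.0%), and about equal in Rps27 (50.4%).

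Of the 10 entries named or annotated as pseudogenes, which were not counted among the 78, 2 met the criterion themselves, where 2.10% of all genes did. Rps4l, an expressed retrocopy of Rps4x, read 469, 352, 406 and 352 in the 2afl/fl livers and 299.8, 355, 205 and 237 in those labelled L2aKO, a difference of -0.55 (SE 0.17, unadjusted p = 0.00758, adjusted p = 0.9997 by limma). L2aKO replicate 2 lay within the control range and the other 3 below it. Rplp2-ps1 read 9.27, 16.5, 24.2 and 13.8 against 0.139, 4.55, 2.54 and 3.81e-07, with separate groups (-2.89, SE 0.58, unadjusted p = 0.000275, adjusted p = 0.9997 by limma). In L2aKO replicates 1 and 4 Rplp2-ps1 was below the value of 1 read. The difference of Rplp2-ps1 thus rests on few reads, and the part of their division between entries in it was not tested. Its parent gene Rplp2 differed by 0.014. Rpl32l, at 34.5 to 45.7 over the 8 livers, was not called.

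Shared sequence was the rule among these genes. The median ribosomal protein mRNA had 60.2% of its 50-base windows in common with a transcript of another gene, against 1.88% for 69 subunits of oxidative phosphorylation, which are also short and abundant. With annotated pseudogenes 75 of 78 mRNAs shared a window, and 19 shared at least 80% of their windows with some other gene. Of the ribosomal protein values under 3000, 66.0 to 72.7% were whole multiples of a read, against 84.3 to 86.3% for other genes. Those other genes were all that had values under 3000 and were not matched in level. Rpl35, with 95.1% of its windows shared, was whole in 8 of 8 libraries, and Rpl37, with 31.3%, in 0. The part of shared sequence in this was not tested. The size of the genotype difference did not follow the shared part (Spearman's rho 0.016 over 78 genes, which share libraries and are not independent).

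Levels can be set side by side only per length. The median was 2758 per kb of annotated mRNA, with quartiles of 1669 and 4289. Rpl10 was highest at 12125 per kb, followed by Rps2 at 10295 and Rpl13a at 9307. In the order of the 78 levels 72 of 77 neighbouring pairs had overlapping livers, so the order within the middle is not resolved. The lowest levels were those of Rpl22, Rpl26, Rpl36a, Rps6, Rpl34, Rps20, Rps15a, Rpl30 and Rpl3l. With their second entries Rpl26, Rpl30, Rpl34 and Rps6 stood at 4042, 2735, 2883 and 5305 per kb and Rps27 at 2874, in the range of the other genes. For Rps6 the second entry lies at another place in the genome, and whether its reads belong to Rps6 was not tested. Rps15a and Rps20 were divided by annotated lengths of 5130 and 3706 nt, far over the median of 724 nt, and their levels per kb depend on that annotation.

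**Figure D3:**
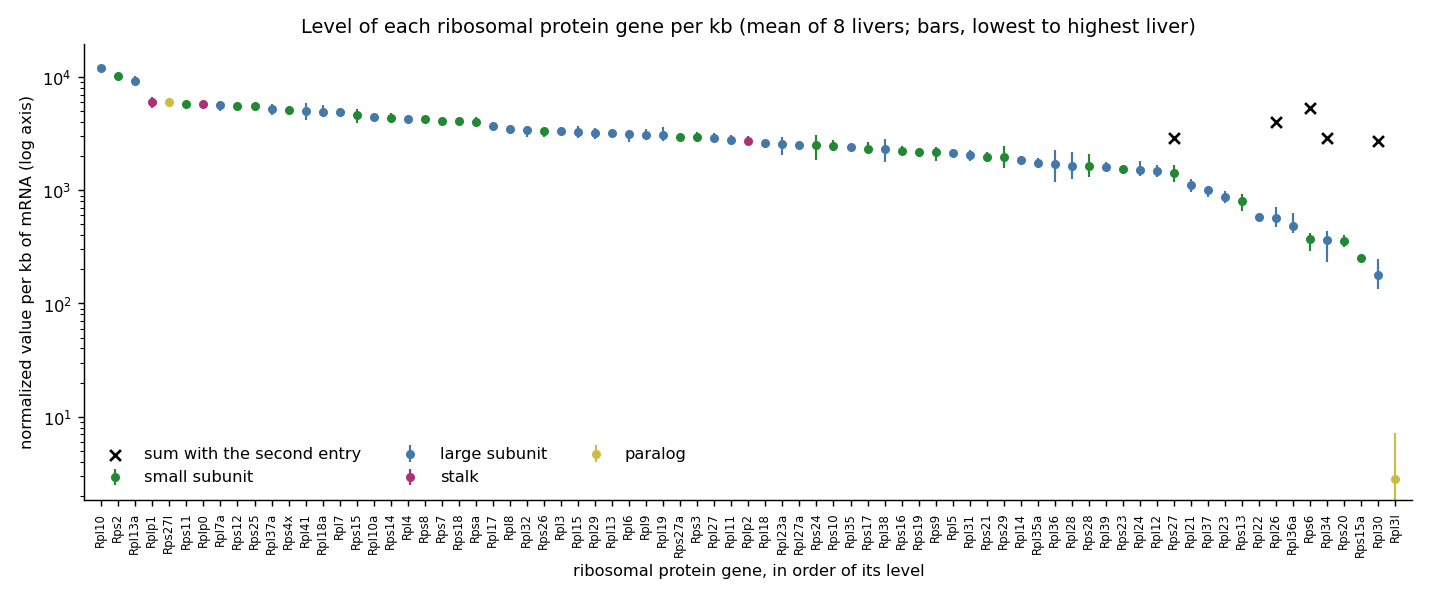
Level of each ribosomal protein gene as normalized value per kb of annotated mRNA on a log axis (points, mean of 8 livers; bars, lowest to highest liver), with the sum of the gene and its second entry as crosses. A gene not reported here is not drawn. The crosses of Rpl26, Rpl30, Rpl34, Rps27 and Rps6 lie between 2735 and 5305 per kb, near or above the median of 2758.

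Beside the genotypes, the ribosomal protein genes varied together from liver to liver. The shared level, the mean over the 78 genes of log2 of the value plus 1 after each gene's own mean was taken away, was 0.017, -0.054, 0.030 and 0.052 in the 2afl/fl livers and -0.043, -0.12, 0.096 and 0.019 in those labelled L2aKO. The lowest and the highest liver were both labelled L2aKO. By group it was 0.011 ± 0.046 (SD, n = 4) and -0.011 ± 0.090 (SD, n = 4), a difference of -0.022. Without L2aKO replicate 2 the difference turned to 0.013, and without L2aKO replicate 3 it was -0.058.

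Most of the genes followed the shared level. In 2afl/fl replicate 4, 68 of the 78 genes lay above their own mean, and in L2aKO replicate 3, 61 did. In 2afl/fl replicate 2, L2aKO replicate 1 and L2aKO replicate 2 only 14, 16 and 15 did. L2aKO replicate 2 held the lowest value of 41 genes and L2aKO replicate 3 the highest value of 36. A single component carried 59.0% of the variance of the 77 genes with a mean of at least 100, against 30.0% for 78 mitochondrial ribosomal proteins, 43.6% for 37 proteasome subunits and 61.5% for 70 oxidative phosphorylation subunits. The median SD of a gene over the livers was 0.096 (log2), and 0.075 once the shared level was taken away.

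**Figure D4:**
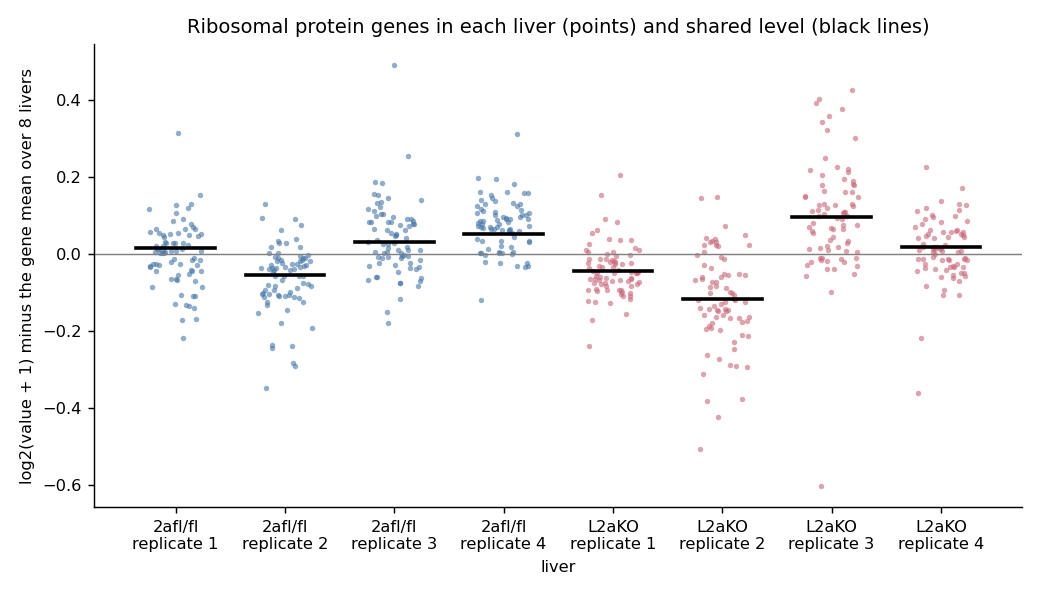
Log2 of the value plus 1 of 77 ribosomal protein genes (points, Rpl3l not drawn) minus each gene's mean over the 8 livers, by liver, with the shared level of the 78 genes (black lines). The points of L2aKO replicate 2 sit around -0.12 and those of L2aKO replicate 3 around 0.096, further apart than the group means of 0.011 and -0.011.

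As a share of all normalized counts the 78 genes took 0.605, 0.615, 0.635 and 0.697% in the 2afl/fl livers and 0.604, 0.593, 0.670 and 0.635% in those labelled L2aKO. The means were 0.638 ± 0.041% (SD, n = 4) and 0.625 ± 0.035% (SD, n = 4), and the groups overlapped. By share the highest liver was 2afl/fl replicate 4, by the shared level L2aKO replicate 3. In whole liver a change in the cells present and a change in the RNA of each cell cannot be told apart.

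The spread between L2aKO replicates 2 and 3 was widest in the shortest mRNAs. Among the 15 ribosomal protein genes with mRNAs of up to 500 nt the median level was -0.16 in L2aKO replicate 2 and 0.18 in L2aKO replicate 3. Among these 15 were Rpl36, at 456 and 872 in these livers, and Rpl38, at 643 and 1029. The range over the 8 livers was 0.34 there, 0.23 at 501 to 700 nt, 0.21 at 701 to 1000 nt and 0.20 at 1001 to 1500 nt. In the last 2 classes 2afl/fl replicate 4 was highest, at 0.090 and 0.064, with L2aKO replicate 3 at 0.054 and 0.044. Other genes showed it in part. Among 119 of them with mRNAs of up to 500 nt the range was 0.13, again with L2aKO replicate 2 lowest and L2aKO replicate 3 highest. At 501 to 700 nt it was also 0.13, but there 2afl/fl replicate 1 was highest, as it was at 701 to 1000 nt with a range of 0.065. L2aKO replicate 2 was lowest in each class up to 2500 nt. The range was 0.012 among 2850 genes of 2501 to 4000 nt and 0.039 over 4000 nt, where 2afl/fl replicate 4 was highest. Across the 77 genes the SD over livers fell with length (Spearman's rho -0.44, a description, since the genes share libraries). With the length trend of the other genes taken away from each liver, the range of the shared level went from 0.21 to 0.14, with L2aKO replicate 2 at -0.059 still lowest and 2afl/fl replicate 4 at 0.083 highest. L2aKO replicate 2 also had the most assigned reads by the estimate above, 37.2M. The part of RNA length, of library depth or of the liver itself in the shared level was not tested.

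**Figure D5:**
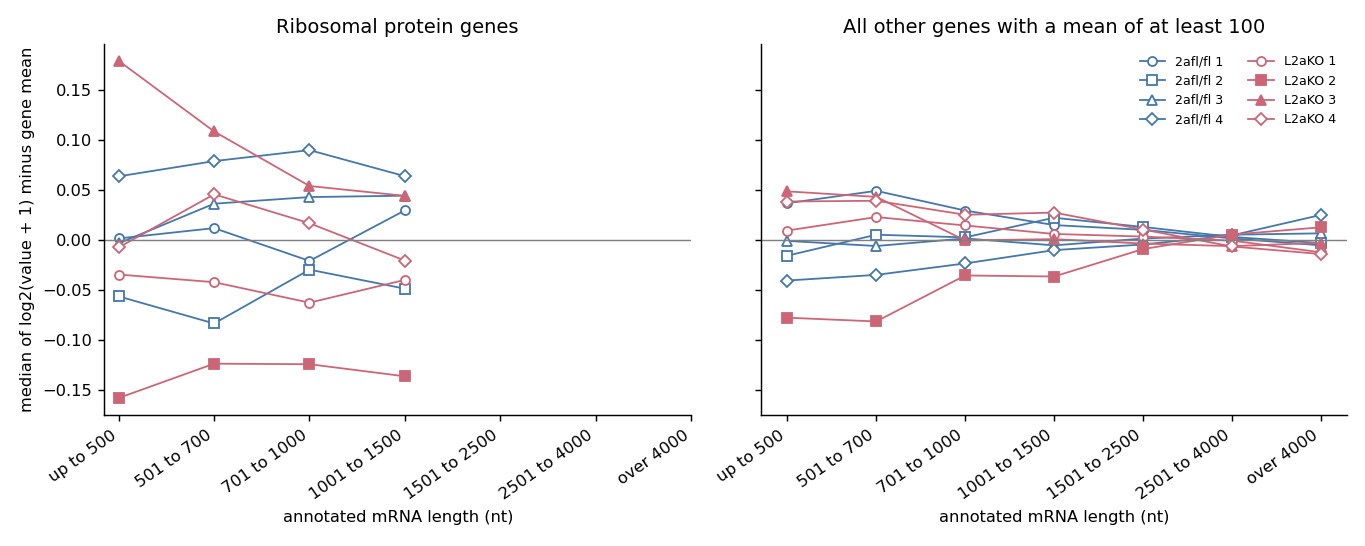
Median over genes of log2 of the value plus 1 minus the gene mean, by class of annotated mRNA length, for ribosomal protein genes (left) and all other genes with a mean of at least 100 (right), with 1 line per liver. Filled marks show L2aKO replicates 2 (squares) and 3 (triangles). They lie 0.34 apart in the shortest ribosomal protein mRNAs and within 0.012 of each other among other genes of 2501 to 4000 nt.

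Markers of other cells moved with these livers in part. The 10 markers of recruited macrophages, all detected, had their lowest mean level in L2aKO replicate 2 (-0.23) and their highest in L2aKO replicate 3 (0.61). These are the same livers as for the ribosomal proteins, but other livers did not match. In 2afl/fl replicate 4 the markers stood at -0.22 and the ribosomal proteins at 0.052, and in L2aKO replicate 1 at 0.24 and -0.043. The summed values of the markers were 1284 to 1526 in the 2afl/fl livers and 1489 to 1833 in those labelled L2aKO. Of the 10 markers 1, Lgals3, was called higher (0.52). Kupffer cell (0.38), T and NK cell (0.34), B cell (0.39) and erythroid markers (0.26) were highest in L2aKO replicate 2, where the ribosomal proteins were lowest. Endothelial (0.15) and stellate cell markers (0.12) were highest in L2aKO replicate 3. Of the erythroid markers 3 of 7 were called higher, as were 1 of 10 B cell and 1 of 8 stellate cell markers, against 1.32% of all genes. In these lists 2 of 7, 0 of 10 and 3 of 8 genes were below 0, at medians of 0.47, 0.43 and 0.017. The erythroid marker of highest mean, Alas2, differed by -0.097, and the stellate cell marker of highest mean, Reln, by -0.023. Kupffer cell, T and NK cell, neutrophil, endothelial and bile duct markers gave 0 calls, but their median differences were all above 0. The medians were 0.18, 0.10, 0.51, 0.059 and 0.052 in that order. Below 0 were 0 of 10, 5 of 10, 1 of 6, 1 of 8 and 3 of 7 genes. In lists this short 0 calls do not show that the markers were unchanged. Of 9 hepatocyte markers measured 0 were called, and all 9 were detected in every liver. The part of these cells in the shared level was not tested.

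In the lists for the rest of the translation machinery 0 genes were called. Of all genes 2.10% were called, and of other genes in the range of means of the ribosomal protein genes 0.899%. At such shares short lists, here and in the next paragraph, would hold few calls or none. The 0 calls thus do not show that these genes were unchanged. The 8 ribosomal protein entries outside the symbol pattern gave 0 calls and a median difference of -0.028. Among 20 elongation factors and other genes with the pyrimidine start 0 were called, at a median of -0.0049, and Eef1a1, which brings aminoacyl-tRNA to the ribosome, differed by -0.0085 (SE 0.069). The 29 initiation factors, 42 genes for ribosome assembly, 18 for RNA polymerase I and its factors and 25 of mTORC1 and its control of these mRNAs each gave 0 calls, with medians of -0.014, -0.011, -0.013 and -0.0058. Larp1 differed by -0.016, and Ncl and Npm1, nucleolar proteins of ribosome assembly, by -0.025 and -0.013.

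Of the 11 host genes of small nucleolar RNAs 0 were called, at a median of 0.0028 with 4 of 11 below 0. Gas5 differed by 0.0025 (SE 0.10) and Snhg12, of higher mean, by 0.85 (SE 0.48), with overlapping groups. The 78 mitochondrial ribosomal proteins gave 0 calls, at a median of -0.039 with 57 of 78 below 0, and the 71 oxidative phosphorylation subunits and 39 proteasome subunits gave 0 calls each, at medians of -0.00070 and -0.013. The shared level of the oxidative phosphorylation subunits was also lowest in L2aKO replicate 2 (-0.18), but highest in 2afl/fl replicate 1 (0.095). That of the elongation factor list ranged over 0.081 between livers, against 0.21 for the ribosomal proteins.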

How the data were processed

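According to the submitters' processing notes, the authors mapped reads to mm10 with STAR 2.7.8a in Partek 10 and used DESeq2. The values the authors deposited are a normalized signal, that is, gene counts divided by a factor per library, some of them fractional. How reads were assigned to genes, by which annotation and at what read length, is not given in the sources used here. Columns were assigned to livers by their labels, with 0 left over.

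All 16650 entries were fitted with limma 3.58.1 in R 4.3.3 after 1 had been added to each value and log2 taken (lmFit, then eBayes with its trend and robust options, two-sided), with Benjamini-Hochberg adjustment over all genes. Tests for counts were not used, since whole reads could not be recovered for all values. The fit was tested on simulated data with known changes. Replicates are separate mice.

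mRNA length is the lower median of the GENCODE vM21 basic protein-coding transcripts, and shared windows were counted over all GENCODE vM21 transcripts on both strands. Promoters and gene places came from RefSeq (GRCm38.p6, the patch release of mm10). The table's stop lies 1 base past the RefSeq end, so ends are given as the last base. A second entry at a locus lay on the same strand with an overlap of at least 0.8 of the longer entry.

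The genes and lists were chosen with earlier results of these data known. Values in every liver are given for genes past the criterion, the 5 highest and 5 lowest differences at a mean over 100, and genes chosen by role. Rps4l and Rpl32l were left out by annotation (Rpl32l is a pseudogene in GENCODE and protein-coding in RefSeq) after their values had been seen. The length classes, the second entries at a locus, their sums and the whole-read counts were also chosen after the values had been seen. Genes encoded in the mitochondrion were not analysed here, and the values of some single genes are not reported here. Alternatives changed the pseudocount (0.1 and 5), the filter (mean of at least 10), the scaling, the eBayes settings, library weights and a replicate block, added pseudogene entries to their genes, and left out each liver in turn.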

Additional observations from a re-analysis of the deposited data

Results flagged for a closer look

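In each group of 4 livers the gap of the lowest or the highest liver to its nearest neighbour was compared with the range of the group, for 27 named genes, the shared level and the share of all counts. A gap past the critical value for 4 values was found in 2 of 58 groups, where chance gives about 1 in 20. Rps13 was low in L2aKO replicate 2, at 386 against 531 to 544 in the other livers labelled L2aKO, with a gap of 0.92 of the range. Rps27a was high in 2afl/fl replicate 4, at 2011 against 1878 to 1889 in the other 2afl/fl livers, also with a gap of 0.92 of the range.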

How the results depend on the processing

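The number of ribosomal protein genes past the criterion was 1, and every change in it came from Rpl34 or Rps4l. It was 0 with a filter at a mean of 10, with equal column totals, quantile normalization, eBayes without trend or robust, library weights, or pseudogene entries added to their genes. It was also 0 under 3 settings added after the data had been seen, namely the second entries at 4 loci added, the mRNA length trend removed, and L2aKO replicates 2 and 3 left out. With Rps4l and Rpl32l counted it was 2, and with single livers left out it ranged from 0 to 1. The number with an unadjusted p under 0.05 by limma was 0 or, with Rps4l and Rpl32l counted, 2 under the same settings, with 2 exceptions. It stayed at 1 with equal column totals, through Rpl34, and without L2aKO replicates 2 and 3. In the latter the gene was Rps13 (0.26, unadjusted p = 0.0118 by limma) and not Rpl34 (unadjusted p = 0.207 by limma). With single livers left out the number ranged from 0 to 4. The 4 were reached without L2aKO replicate 2, and Rps13 (0.27), Rps24 (0.24) and Rpl34 (-0.39) were among them.

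The median log2 difference stayed below 0 in every setting and ran from -0.062 to -0.0035 with single livers left out. The shared level difference ran from -0.058 to 0.013, and the difference in share of all counts from -0.028 to 0.0070 percentage points, with single livers left out. No scaling moved the median of all genes by more than 0.011. Of the 566 comparisons of a named gene with its value under another setting, 521 kept the direction and the call, 31 changed the sign of a difference that was not called, and 14 lost the call, all of them Rpl34.

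No pairing of the livers by replicate number was seen. Same-numbered livers correlated at 0.096, -0.37, -0.068 and 0.21 in their deviations from the group means. The highest correlation, 0.35, was that of 2afl/fl replicate 3 with L2aKO replicate 2, and 2afl/fl replicate 2 correlated best with L2aKO replicate 4 (0.23). Such correlations follow whatever varies most in each liver, so they cannot exclude a pairing. With the replicate block 1 ribosomal protein gene was past the criterion, again Rpl34, the median was -0.026, and 359 of all genes were called in place of 349.

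With 4 livers per group the interval of a difference stayed within the fold limit for 67 of 78 genes, and for the rest the data do not bound it to that size. Values of genes whose reads are shared with other entries depend on how the counting program divided them. For Rpl3l, at 0 to 7.45, no difference was detectable at this depth.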
